A study of Mus musculus with 8 samples.

Results

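Chromosome 11 carried more listed regions of 5-hydroxymethylcytosine (5hmC) per Mb than any other autosome in both mouse tissues of the series, and this density is what chose it. Its members are all regions on chromosome 11 in the authors' merged region lists: 1391 of 21990 in hippocampus and 722 of 11664 in left ventricle, 2113 of 33654 in all. The regions were chosen by their position alone, and none was left out. Chromosome 3, the sparsest autosome, with 1143 and 569 regions, serves as the comparison. Coordinates are those of the mouse build mm9.

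The mice were of strain C57BL/6, and their tissues were collected 20 weeks after proton irradiation with 1 Gy or, in the sham controls, after 0 Gy. Each library was made from a pool of DNA, with 5 mice per treatment group behind the pools. Whether a pool holds all 5 is not stated. Each of the 4 groups (sham hippocampus, irradiated hippocampus, sham ventricle, irradiated ventricle) has 2 pools labelled as biological replicates, so a p-value here measures the spread between pools and not between single animals. All 8 libraries were immunoprecipitated for 5hmC and sequenced. No transgene or second treatment is named in the labels, and the cell types within the pooled tissues are not distinguished.

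5hmC is made when TET enzymes oxidise 5-methylcytosine, the methyl mark of CpG sites. It is an intermediate of DNA demethylation and also a lasting mark. It is abundant in neurons, where it lies along the bodies of expressed genes and at enhancers, and scarcer in most other tissues. Mouse chromosome 11 is known as a gene-rich autosome, and mouse chromosomes have their centromere at the start of the sequence map, next to stretches of repeated sequence. Immunoprecipitation reads the mark at the resolution of a DNA fragment, and repeats present in more copies in the mouse than in the build can collect reads.

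Total counts over all regions ranged from 110699 (sham) to 1912037 (irradiated) per hippocampal pool and from 49649 to 111035 per ventricular pool, and both sham hippocampal pools were shallower than both irradiated ones. Dose and depth therefore cannot be told apart in hippocampus. Across the 1391 hippocampal regions of chromosome 11, which share their libraries and are no replicates, the Spearman correlation of counts was -0.529 for the 2 sham pools and 0.683 for the 2 irradiated ones. Across the 722 ventricular regions it was 0.0241 for the sham and -0.397 for the irradiated pools. Sham hippocampal pool 1 and irradiated ventricular pool 1 each correlated negatively with every other pool of their tissue (-0.529 to -0.331 and -0.397 to -0.114). Each also had a step in its counts. The step was looked for in these 2 pools only, so it is not shown to set them apart. They are called the stepped pools below. In the hippocampal pool 85 regions of chromosome 11 held 11 counts and 127 held 12. In the ventricular pool 27 held 8 counts and 54 held 9. Chromosome 11 shares, ratios, region calls and median fold changes are also given with pools left out. Counts of members or bins without overlap, and most named regions and bins, are given with all pools only.

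Between its first and last listed position (2999510 to 121788317), chromosome 11 held 11.7 hippocampal regions per Mb. In ventricle (3000182 to 121602042) it held 6.09. Chromosome 3 held 7.38 and 3.71. The next densest autosomes were chromosome 19 in hippocampus at 10.5 and chromosome 9 in ventricle at 5.93, and the next sparsest were chromosome 1 at 7.80 and chromosome 13 at 4.08. These densities are the choosing values and are not tested. Listed regions covered 3.15% of the chromosome 11 span in hippocampus and 1.61% in ventricle, against 1.95% and 0.969% on chromosome 3. The median distance from one region to the next was 41.8 kb on chromosome 11 and 63.9 kb on chromosome 3 in hippocampus, and 73.5 kb and 116 kb in ventricle. The largest stretch of chromosome 11 without a region was 1.38 Mb in hippocampus and 2.68 Mb in ventricle.

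The high density of chromosome 11 was uneven along its length, with the distal end densest in both tissues. Of the 119 bins of 1 Mb from 3 to 122 Mb, the first 40 (3 to 43 Mb) held 7.38 hippocampal regions per bin ± 6.11 (SD over bins). The next 40 (43 to 83 Mb) held 12.6 ± 5.35, and the last 39 (83 to 122 Mb) held 15.2 ± 7.42. In ventricle the same stretches held 3.65 ± 3.50, 6.15 ± 3.47 and 8.46 ± 5.07. The last 39 bins thus carried 42.5% of the hippocampal and 45.7% of the ventricular regions. Chromosome 3 showed no such rise: its 3 stretches of 52 bins held 6.67, 8.04 and 7.27 regions per bin in hippocampus and 3.33, 3.81 and 3.81 in ventricle. The proximal stretch of chromosome 11 was near the chromosome 3 level, 7.38 against 6.67 in hippocampus and 3.65 against 3.33 in ventricle. There is 1 list per tissue, so these differences carry no replicate check.

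**Figure D1:**
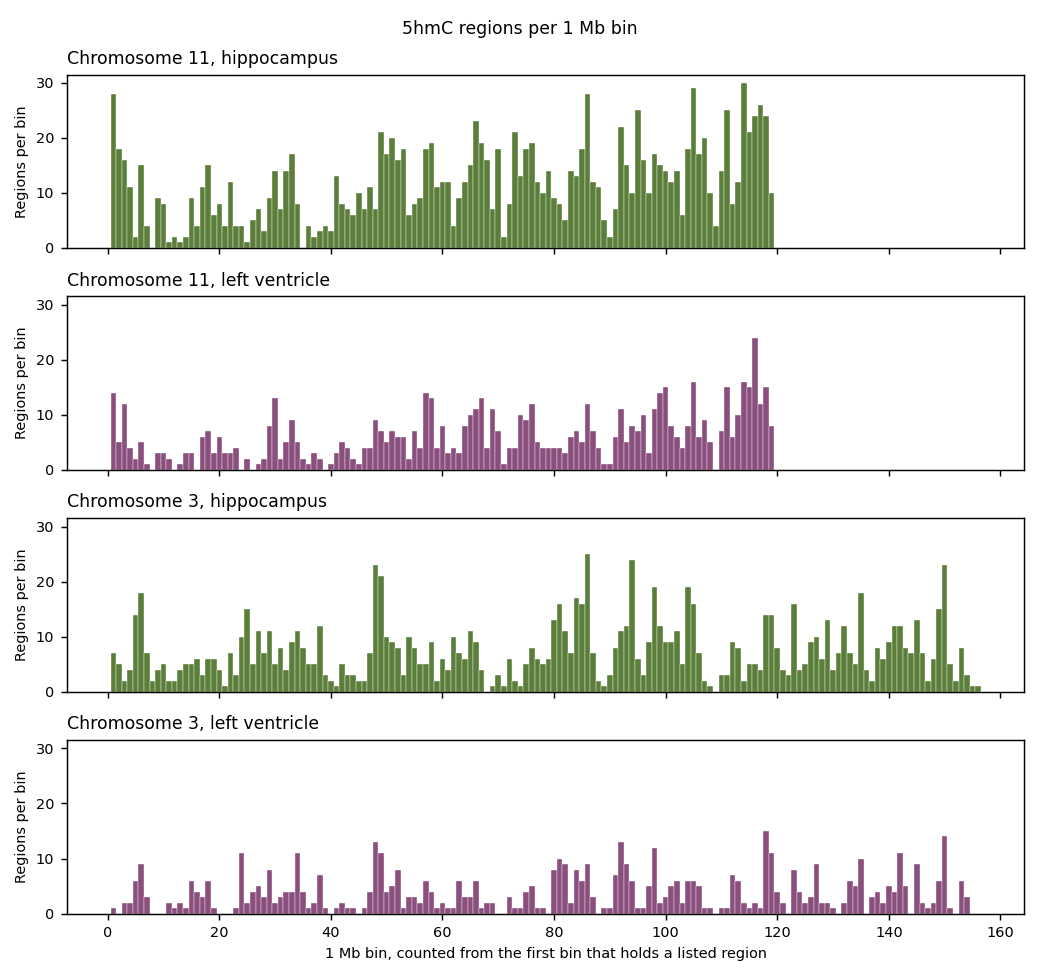
Bars give the number of listed 5hmC regions in each 1 Mb bin (vertical axis) in order along chromosome 11 and chromosome 3 (horizontal axis, bins counted from the first with a region), for hippocampus and left ventricle. On chromosome 11 bins fill towards the distal end, up to 30 regions in hippocampus and 24 in ventricle. On chromosome 3 the fullest bins hold 25 and 15.

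The fullest hippocampal bins of chromosome 11 were 116 to 117 Mb with 30 regions, 107 to 108 Mb with 29, and 3 to 4 Mb and 88 to 89 Mb with 28 each. The fullest ventricular bin was 118 to 119 Mb with 24, followed by 107 to 108 Mb and 116 to 117 Mb with 16 each. The bins at 107 and 116 Mb were thus among the fullest of both lists. The median bin held 11 regions in hippocampus and 5 in ventricle, against 6 and 2 on chromosome 3. Bins with 10 or more regions numbered 68 in hippocampus and 25 in ventricle.

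The empty bins lay mostly in the proximal part. The bin from 10 to 11 Mb held no region in either tissue, and that from 37 to 38 Mb held none in hippocampus and 2 in ventricle. The bins from 14, 18, 26, 28, 41 and 111 Mb were empty in ventricle and held 2 to 5 hippocampal regions each. Across the 119 bins the numbers of regions in both tissues went together (Pearson r = 0.778, Spearman 0.802), and on chromosome 3 they did so over 156 bins (0.765 and 0.769). These are descriptions across bins of 2 lists, which share the genome and its composition. Hippocampus held more regions than ventricle in 105 of the bins and fewer in 8.

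Most members had the same width. In hippocampus 1036 of 1391 regions (74.5%) were exactly 2544 bp wide, 336 (24.2%) were wider and 19 narrower. In ventricle 562 of 722 (77.8%) had that width, 130 (18.0%) were wider and 30 narrower. Of the 19 autosomes chromosome 11 had the highest share of wider regions in both lists, where the autosomes ranged from 16.0% (chromosome 3) to 24.2% in hippocampus and from 12.1% to 18.0% in ventricle. Chromosome 15 was almost level with chromosome 11, at 23.5% in hippocampus and 17.6% in ventricle. Chromosome 3 stood at 15.1% in ventricle. How widths were set is not known from the sources used here, nor is the rule by which neighbouring peaks were joined, which could tie width to density.

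The wider regions did not hold more reads in every pool. In hippocampus wider and 2544 bp regions had mean counts of 132 and 66.6 in irradiated pool 1, of 112 and 57.4 in irradiated pool 2, and of 8.36 and 3.52 in sham pool 2. Sham pool 1 had the opposite order, 8.06 in wider and 12.6 in 2544 bp regions. In ventricle wider regions held 12.6, 7.72 and 15.1 counts on average in sham pools 1 and 2 and irradiated pool 2, against 5.58, 2.78 and 7.72 in 2544 bp regions. Irradiated ventricular pool 1 again went the other way, with 6.22 against 7.09. The reversal was seen in the 2 stepped pools.

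The same 2 pools divide the chromosome 11 lists. Of the hippocampal members, 733 (52.7%) held 12 or more counts in sham pool 1, and their median in sham pool 2 was 1 count. The other 658 had medians of 8 and 6 counts in these pools. In irradiated pool 1 the medians of these 2 sets were 60 and 84. In ventricle 304 members (42.1%) held 9 or more counts in irradiated pool 1 and had a median of 1 count in irradiated pool 2, where the other 418 had a median of 11. On chromosome 3 the same sets made up 63.2% and 47.6% of the lists. The sets were defined by the counts they describe, so nothing is tested on them.

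Fewer ventricular than hippocampal members held reads throughout. All 4 pools had at least 1 count in 968 hippocampal members (69.6%) and in 117 ventricular members (16.2%). The median hippocampal member had 12 and 3 counts (sham) against 71 and 62 (irradiated). The median ventricular member had 3 and 0 (sham) against 7 and 5 (irradiated). In sham ventricular pool 2, 377 of 722 members stood at 0. A count of 0 allows up to 3 counts, there 60.4 CPM (counts scaled to a common total over all regions of the pool). In hippocampus none stood at 0 in the irradiated pools, where 3 counts are 1.57 and 1.84 CPM.

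Chromosome 11 took a similar share of the region counts in the 4 hippocampal pools, 6.00% and 5.95% (sham) against 5.99% and 6.04% (irradiated). The means were 5.98% ± 0.0314 and 6.01% ± 0.0320 (SD, n = 2 pools each; exact permutation p = 0.667), a difference of 0.0377 percentage points. That difference was 0.832 without the 12 regions whose mean CPM exceeded 20 times the median region, none of them on chromosome 11, and -0.278 without the cluster at the chromosome's start described below, at the smallest p of 0.333 in both. The 95% exact binomial (Clopper-Pearson) intervals ran from 5.81% to 6.09% in sham pool 2 and from 5.96% to 6.02% in irradiated pool 1, and they cover counting error only. The ventricular shares were 6.12% and 5.28% (sham) against 5.69% and 5.95% (irradiated), with means of 5.70% ± 0.595 and 5.82% ± 0.185 (exact permutation p = 1). A two-sided test of 2 pools against 2 cannot give a p under 0.333. The ventricular difference of 0.116 turned to -0.833 without the high-count regions, and leaving out 1 pool turned it to -0.304 (without sham pool 2) and -0.0144 (without irradiated pool 2). The spread was wider on chromosome 3, with 5.29% and 3.91% (sham) against 3.69% and 3.90% (irradiated) in hippocampus and 3.92% and 3.20% against 4.84% and 3.95% in ventricle. Its highest shares were those of the 2 stepped pools.

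Per region, chromosome 11 held more reads than chromosome 3 in 6 of the 8 pools. The ratio of mean counts per region, chromosome 11 over chromosome 3, was 0.932 and 1.25 (sham) against 1.34 and 1.27 (irradiated) in hippocampus. The ventricular ratios were 1.23 and 1.30 (sham) against 0.926 and 1.19 (irradiated). The ratios below 1 belong to the stepped pools. Chromosome 3 had the lowest hippocampal mean count per region of all autosomes in sham pool 2 (3.79) and the irradiated pools (61.7 and 55.6). There a ratio above 1 is not particular to chromosome 11. The difference between tissues was smaller than the spread of their pools, with 1.20 ± 0.180 in hippocampus and 1.16 ± 0.164 in ventricle (SD, n = 4 each; two-sided exact permutation p = 0.629). By dose, the irradiated ratios exceeded the sham ratios in hippocampus (difference 0.212) and fell short of them in ventricle (-0.209), each at the smallest p of 0.333. Without sham pool 1 the hippocampal difference was 0.0530, and without irradiated pool 1 the ventricular one was -0.0788. Without the cluster described next the groups overlapped in both tissues, and the differences were 0.135 and -0.0924 (exact permutation p = 0.667 each).

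**Figure D2:**
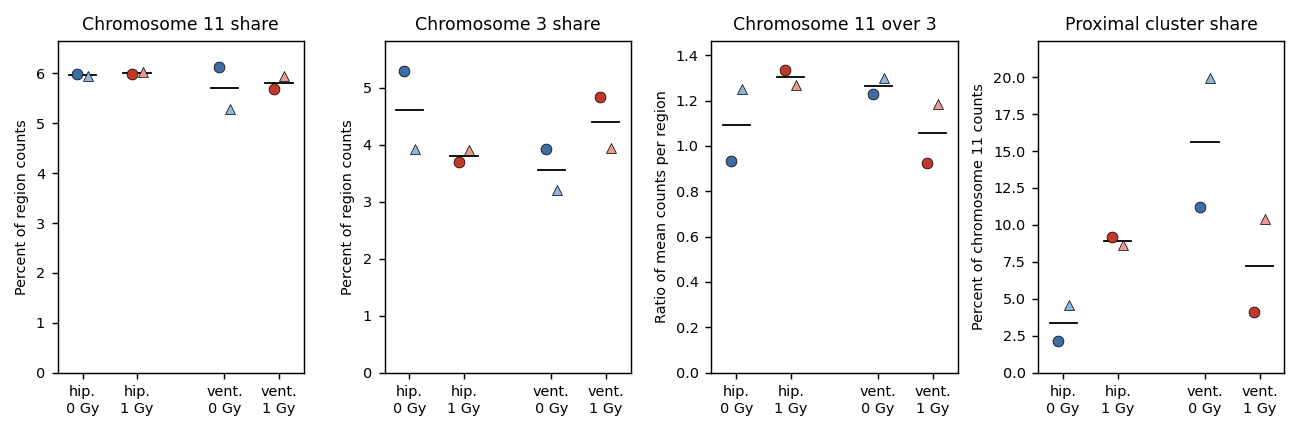
Each point is 1 pool (circle pool 1, triangle pool 2), each bar the mean of the 2 pools of a group, and all vertical axes start at 0. From left to right: percent of region counts on chromosome 11, the same on chromosome 3, the ratio of mean counts per region (chromosome 11 over 3), and the percent of chromosome 11 counts in the proximal cluster. The chromosome 11 share stays between 5.28% and 6.12%, and the proximal share runs from 2.17% to 19.9%.

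The strongest signal of chromosome 11 lay at its centromeric start. A cluster of 10 hippocampal regions (2999510 to 3097678) and 9 ventricular regions (3000182 to 3100007), with midpoints within 100 kb of the first listed position, held 8 of the 10 highest members of each list by mean CPM. The cluster was marked out after its values had been seen. In hippocampus the 5 highest members were chr11:3058548-3066243, chr11:3041430-3047327, chr11:2999510-3002056, chr11:3031095-3035344 and chr11:3076784-3081385, with mean CPM of 703, 668, 479, 435 and 434. The highest member outside the cluster reached 117 CPM. In ventricle the 5 highest were chr11:3031806-3037489, chr11:3040390-3047729, chr11:3054581-3058550, chr11:3076061-3083536 and chr11:3092259-3100007, with 1203, 1106, 992, 968 and 794 CPM, and the highest outside reached 228. The tissues' regions here overlapped, in 9 of 10 hippocampal and 8 of 9 ventricular members.

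None of the cluster's members had the common width of 2544 bp. They were 2547 to 7696 bp wide in hippocampus and 2670 to 7749 bp in ventricle, and they include 2 of the 3 widest members of the hippocampal list (chr11:3058548-3066243 at 7696 bp and chr11:3041430-3047327 at 5898 bp) and all of the 3 widest of the ventricular list. The other of the hippocampal 3, chr11:7072288-7079305, was 7018 bp wide and had 10 and 15 counts (sham) against 246 and 139 (irradiated). Its log2 fold change was 0.65 (SE 1.02, edgeR FDR 1.00), and without sham pool 1 or 2 it was -0.10 or 1.98.

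The cluster's share of chromosome 11 counts separated the doses in opposite directions in the 2 tissues. Hippocampal shares were 2.17% and 4.61% (sham) against 9.18% and 8.65% (irradiated), with means of 3.39% ± 1.73 and 8.91% ± 0.377 (SD, n = 2). Ventricular shares were 11.2% and 19.9% (sham) against 4.09% and 10.4% (irradiated), with means of 15.6% ± 6.13 and 7.23% ± 4.44. Each difference has an exact permutation p of 0.333, the smallest possible. The differences of 5.52 and -8.35 percentage points ran from 4.30 to 6.74 and from -12.7 to -4.01 with 1 pool left out. In ventricle the ends of that range came from leaving out sham pool 1 and sham pool 2, and without irradiated pool 1 the value was -5.21. The groups do not overlap, so leaving out a pool cannot turn the direction. The hippocampal pools with the higher shares were also the deeper ones, and the part of depth in the result was not tested.

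**Figure D3:**
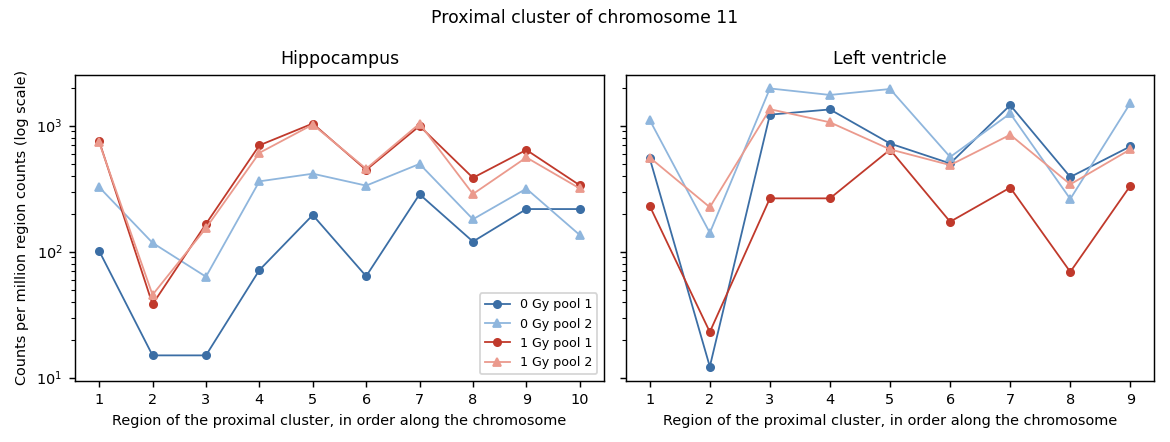
Lines give the CPM (vertical axis, log scale) of each region of the proximal cluster, in order along the chromosome (horizontal axis), in the 4 pools of each tissue. The irradiated hippocampal pools lie above the sham pools in 9 of the 10 regions, and the irradiated ventricular pools lie below them in 5 of the 9. Scaled by total counts, 12.0% of all tested hippocampal regions lay above and 16.2% of all tested ventricular regions lay below in this way.

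Region by region, the test gave no call in the cluster. At chr11:3041430-3047327 the hippocampal counts were 52 and 46 (sham) against 1987 and 1662 (irradiated), or 279.6 CPM ± 162.8 against 1173 CPM ± 48.8 after TMM scaling (trimmed mean of M-values; SD, n = 2). Its log2 fold change was 2.08 (SE 0.90, unadjusted p = 0.0509 in edgeR, FDR 1.00). The log2 fold change was 1.54 with sham pool 1 left out and 2.86 with sham pool 2 left out, each from a fit with a lone sham pool. Over the cluster the hippocampal log2 fold changes ran from -0.27 to 2.40 with a median of 1.60, and 9 of 10 were above 0. In ventricle they ran from -0.77 to 1.26 with a median of -0.51, and 8 of 9 were below 0. Over all tested regions the medians were 0.11 in hippocampus and 0.20 in ventricle. At the ventricular region chr11:3031806-3037489 the counts were 100 and 98 (sham) against 23 and 150 (irradiated), so the groups overlap.

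Over the whole chromosome no member passed for 1 Gy against 0 Gy. Of 1382 tested hippocampal members edgeR called 0 at a false discovery rate (FDR) of 0.05, where it called 0% of all 21498 tested regions. At an unadjusted p under 0.05 it had 18 (1.30%, against 1.04% of all regions), and DESeq2 called 0 (0.00455% of all 21990 regions). The median log2 fold change was 0.22 on chromosome 11 and 0.11 over all regions. Scaling by total counts moved both medians (-0.17 and -0.27) and left chromosome 11 0.10 above, against 0.11 under TMM. Without sham pool 1 the medians were 0.68 and 0.71, with chromosome 11 0.03 lower, and without sham pool 2 they were 0.26 and 0.11.

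In 354 hippocampal members both irradiated pools exceeded both sham pools in TMM-scaled CPM (25.6%, against 22.6% of all regions), and the reverse held in 104 (7.53%, against 8.46%). With total counts these were 191 and 191 (13.8% each, against 12.0% and 14.9% of all regions). With DESeq2-type size factors they were 252 and 150 (18.2% and 10.9%, against 15.4% and 12.4%), so the split depends on the scaling. On chromosome 3 the numbers were 206 and 105 of 1104 under TMM.

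The outcome in hippocampus turned on the sham pools. Without sham pool 1 edgeR called 217 members (159 higher, 58 lower; 15.6%, against 15.4% of all regions). Without sham pool 2 it called 301 (260 higher, 41 lower; 21.6%, against 20.6%). Of the 54 members in both lists, 22 were higher in both and 32 had opposite directions. Leaving out an irradiated pool gave 0. In these fits the lone pool of a dose is assumed to vary like the pools of the other.

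The 5 hippocampal members with the smallest p of a higher value were all wider than 2544 bp, as were 24.2% of all hippocampal members. The 5 of a lower value all had exactly that width, as did 74.5% of all. As given above, sham pool 1 held fewer counts in wider than in 2544 bp regions, and its part here was not tested. The first of the higher ones, chr11:19895960-19899476, held 0 and 1 counts (sham) against 209 and 125 (irradiated). The ratio was 46.5 with a counting interval of 8.29 to 1843 (unadjusted p = 0.00917 in edgeR, FDR 1.00). Next, chr11:95350158-95353482 held 4 and 0 counts against 124 and 112, a log2 fold change of 3.15 (SE 1.00, edgeR FDR 1.00). Both met the filter on low counts by way of their high irradiated pools. The other 3 were chr11:77770383-77773700 (4 and 1 against 100 and 74 counts), chr11:5758525-5761211 (4 and 2 against 120 and 91) and chr11:34050779-34053553 (5 and 1 against 128 and 66), with log2 fold changes of 2.19 to 2.29. In all 5 the sham pools together held 6 counts or fewer.

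In the 5 members leading in the other direction the sham pools held 5 to 23 counts and the deeper irradiated pools 12 to 46. At chr11:91470902-91473445 the counts were 19 and 6 (sham) against 12 and 12 (irradiated), or 55.8 CPM ± 6.09 against 7.75 CPM ± 0.656 (SD, n = 2), a log2 fold change of -2.84 (SE 0.97, unadjusted p = 0.0190 in edgeR, FDR 1.00). At chr11:101015284-101017827 they were 13 and 10 against 19 and 16 (-2.41), and at chr11:24224204-24226747 they were 20 and 10 against 39 and 29 (-1.74). At chr11:121251491-121254034 they were 23 and 5 against 36 and 26 (-1.59), and at chr11:94903348-94905891 they were 21 and 8 against 46 and 32 (-1.43).

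**Figure D4:**
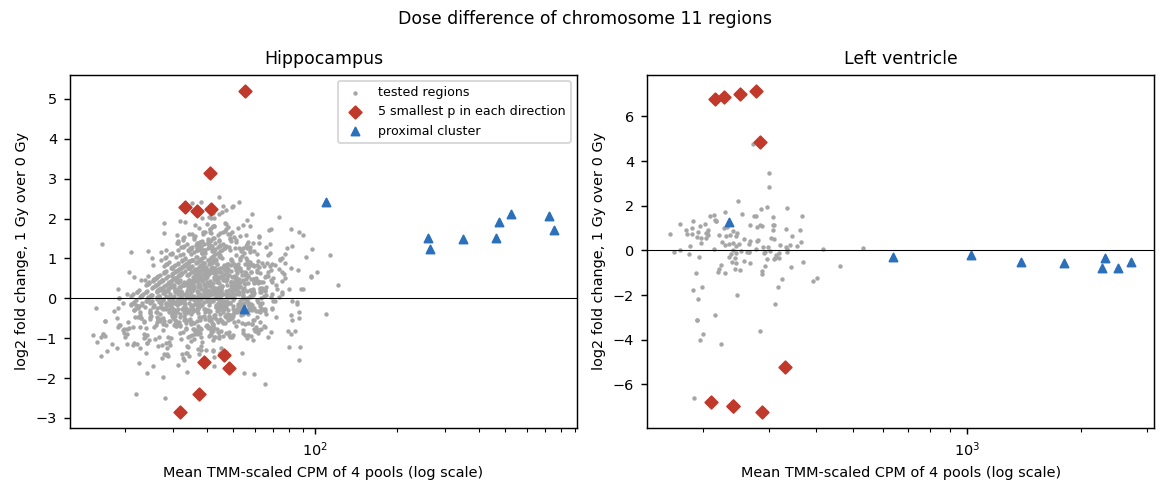
Points are the tested chromosome 11 regions, with the mean TMM-scaled CPM of 4 pools (horizontal axis, log scale) and the log2 fold change of 1 Gy over 0 Gy in edgeR (vertical axis); fold changes where a group stands at 0 depend on the prior count and are no measured size. Diamonds mark the 5 smallest p in each direction and triangles the proximal cluster, which holds most of the highest means. No region passed the FDR.

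In ventricle only 159 of 722 members (22.0%) passed the filter on low counts, against 99.4% in hippocampus, and edgeR called 0 of them, as of all 2252 tested regions (0%). An unadjusted p under 0.05 was found for 4 (2.52%, against 2.53% of all regions). DESeq2 called 0 as well. The irradiated pools exceeded the sham pools without overlap in 17 members (10.7%, against 10.3% of all tested regions) and fell short in 27 (17.0%, against 18.3%). With total counts these were 24 and 22 (15.1% and 13.8%, against 13.4% and 16.2% of all tested regions). With DESeq2-type size factors they were 24 and 21 (15.1% and 13.2%, against 13.9% and 15.5%). The majority turned with the scaling on chromosome 11 and did not over all tested regions. The median log2 fold change was 0.20 on chromosome 11 and over all tested regions, and with total counts it was 0.41 and 0.42. With 1 pool left out the chromosome 11 median ran from -0.20 (without irradiated pool 2) to 1.35 (without sham pool 1), with 0.54 without sham pool 2 and 0.10 without irradiated pool 1. The medians over all tested regions were then 0.03, 1.71, 0.71 and 0.19, above chromosome 11 in each. With no filter the medians were 0.56 and 0.88, and in DESeq2 0.79 and 1.12.

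In each of the 10 ventricular members named for dose, the pools of 1 dose together held 0 or 1 counts. Of the 5 with the smallest p of a higher value, chr11:113952278-113954821 held 0 and 0 counts (sham) against 15 and 20 (irradiated). Taking 3 counts in each sham library as its upper limit, it was at least 5.67-fold higher (unadjusted p = 0.0347 in edgeR, FDR 1.00). At chr11:67351349-67353892 (0 and 0 against 11 and 23), chr11:52774868-52777411 (0 and 0 against 11 and 19) and chr11:83593022-83595565 (0 and 0 against 12 and 15) the values were at least 5.14-fold, 4.67-fold and 4.41-fold higher. At chr11:98259219-98261762 the counts were 1 and 0 against 16 and 18, a ratio of 31.6 with a counting interval of 5.29 to 1282. It was their high irradiated pools that met the filter.

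Of the lower ones, chr11:99491355-99493898 held 23 and 13 counts (sham) against 0 and 0 (irradiated) and was at least 5.78-fold lower (unadjusted p = 0.0300 in edgeR, FDR 1.00). In the same 1 Mb bin lies chr11:99156852-99159395. It and the distant chr11:8468203-8470746 had equal counts, 18 and 12 against 0 and 0, at least 4.85-fold lower. At chr11:68008202-68010745 they were 21 and 6 against 0 and 0, at least 4.24-fold lower. At chr11:97899582-97902338 they were 21 and 19 against 0 and 1, a ratio of 43.1 with a counting interval of 7.31 to 1745. Here the sham pools are the ones that met the filter.

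Sums over 1 Mb bins hold more reads than single regions, and their spread was smaller (biological coefficient of variation 0.294 against 0.602 in hippocampus, 0.664 against 1.44 in ventricle). Of 116 tested hippocampal bins of chromosome 11 edgeR called 0, as of all 2388 bins (0%). An unadjusted p under 0.05 was found for 4 (3.45%, against 3.98%). The irradiated pools exceeded the sham pools without overlap in 33 bins (28.4%, against 19.3% of all bins) and fell short in 14 (12.1%, against 17.9%). These and the ventricular numbers below were counted under TMM only. With total counts the median log2 fold change of hippocampal bins moved from 0.09 to -0.22 on chromosome 11. Over all bins it moved from -0.05 to -0.35. In ventricle edgeR called 0 of 100 bins, as of all 1759 (0%), with 5 at an unadjusted p under 0.05 (5.00%, against 3.92%). There the pools separated upwards in 16 bins (16.0%, against 17.7%) and downwards in 20 (20.0%, against 15.6%). DESeq2 called 1 hippocampal bin of chromosome 11, from 3 to 4 Mb, where it called 0.163% of all bins, and 0 ventricular ones, where it called 0.223%. Without sham pool 1 the median log2 fold change of hippocampal bins was 0.09 on chromosome 11 and 0.07 over all bins. Without sham pool 2 these medians were 0.27 and -0.02.

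That bin holds the proximal cluster. Its hippocampal counts were 557 and 379 (sham) against 11845 and 9769 (irradiated), or 2601 CPM ± 1303 against 6727 CPM ± 328 (SD, n = 2). The log2 fold change was 1.38 in edgeR (SE 0.59, unadjusted p = 0.0518, FDR 0.828) and 1.36 in DESeq2 (FDR 0.00271). Without sham pool 1 or 2 it was 0.94 or 2.03, each from a fit with a lone sham pool. With the cluster's regions left out it was 0.29 (SE 0.25, edgeR FDR 0.827). In ventricle the bin held 602 and 530 counts (sham) against 238 and 711 (irradiated), a log2 fold change of -1.22 (SE 0.79, edgeR FDR 0.994), and -0.21 without the cluster.

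Among the other bins, that from 80 to 81 Mb had the smallest p of a higher value in hippocampus, with 10 regions, and with 101 and 42 counts (sham) against 906 and 924 (irradiated). After scaling these were 347.5 CPM ± 60.7 against 573.3 CPM ± 58.0 (SD, n = 2), a log2 fold change of 0.75 (SE 0.25, unadjusted p = 0.0184 in edgeR, FDR 0.828). The bins from 95 Mb (153 and 49 against 1170 and 1202 counts) and 46 Mb (60 and 21 against 574 and 452) followed with 0.70 and 0.77. Lower values were those of the bins from 42 Mb (38 and 26 against 92 and 100 counts, log2 fold change -1.52), 56 Mb (79 and 23 against 214 and 206, -0.79) and 91 Mb (86 and 15 against 164 and 171, -0.97). The bin from 95 Mb contains chr11:95350158-95353482 and that from 91 Mb contains chr11:91470902-91473445, named above, so these are not separate observations.

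In ventricle the bin from 99 to 100 Mb had the smallest p, with 45 and 25 counts (sham) against 10 and 9 (irradiated) and a log2 fold change of -2.67 (SE 0.87, unadjusted p = 0.0150 in edgeR, FDR 0.994). Of its sham counts 41 and 25 came from the 2 members at 99156852 and 99491355 named above. The bins from 97 Mb (75 and 28 against 39 and 32 counts, -1.26) and 49 Mb (32 and 41 against 32 and 21, -1.44) followed. In the bin from 97 Mb, 21 and 19 of the sham counts and 0 and 1 of the irradiated ones came from chr11:97899582-97902338. That member is named above, so these are not separate observations. Of the higher ones, the bin from 33 Mb held 0 and 0 counts against 26 and 22, at least 4.15-fold higher. That from 64 Mb held 0 and 1 against 41 and 22, a ratio of 36.3 with a counting interval of 6.28 to 1455. That from 93 Mb held 5 and 1 against 63 and 28, a log2 fold change of 3.23 (SE 1.25).

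The lists of the tissues met at few places. On chromosome 11, 109 hippocampal members (7.84%) shared at least 1 bp with a ventricular member, and 105 ventricular members (14.5%) with a hippocampal one. On chromosome 3 these were 55 (4.81%) and 53 (9.31%). Among the 19 autosomes the share ran from 4.24% to 7.84% in hippocampus, with chromosome 4 (7.83%) almost level with chromosome 11. In ventricle it ran from 7.49% to 15.9%, highest on chromosome 4. At a reciprocal overlap of 50% the hippocampal share was 4.03% on chromosome 11, 4.05% on chromosome 4 and 5.03% on chromosome 9. Chromosome 11 also has denser lists than chromosome 3, and the part of density in these shares was not tested. The shared members were spread over the chromosome: 7.80%, 6.93% and 8.63% of the hippocampal members in the first, middle and last stretch.

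Shared members had higher mean CPM over the 4 pools, but not higher counts in each pool. In hippocampus their median was 47.8 CPM against 37.9 CPM in members found in 1 list, and 44.0% of them against 22.5% were wider than 2544 bp. In ventricle it was 78.9 against 65.5 CPM, with 23.8% against 17.0% wider. All 4 hippocampal pools held reads in 78.9% of the shared and 68.8% of the other members. In ventricle the 4 pools did so in 27.6% and 14.3%. In sham hippocampal pool 1 the median count was 10 in shared and 12 in other members, and in irradiated ventricular pool 1 it was 6 and 7, while in the other hippocampal pools and the other ventricular ones the shared members had the higher median. On chromosome 3 the hippocampal medians were 42.0 and 34.3 CPM, so the order was the same there.

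With a reciprocal overlap of at least 50%, 56 pairs matched one to one on chromosome 11 and 25 on chromosome 3. The 5 strongest by the lower of the 2 tissues' mean CPM all lay in the proximal cluster, and 8 of the 56 pairs did. These 8 had a median of 379 CPM in hippocampus and 881 CPM in ventricle, and the other 48 pairs 49.9 and 72.7 CPM. The first outside the cluster was chr11:53952594-53955134 (ventricular chr11:53952435-53954978), named after its values had been seen. Its counts were 9 and 22 (sham) against 206 and 207 (irradiated) in hippocampus, and 19 and 13 (sham) against 2 and 44 (irradiated) in ventricle.

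**Figure D5:**
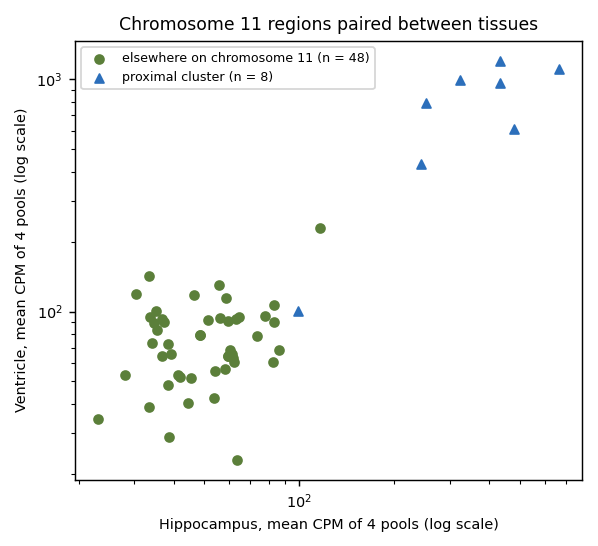
Each point is a pair of regions, 1 per tissue, that overlap by at least 50% of both (56 pairs), by mean CPM over the 4 pools of hippocampus (horizontal axis) and ventricle (vertical axis), both log scales. The 8 pairs of the proximal cluster (triangles) reach 668 CPM in hippocampus and 1203 CPM in ventricle, and the 48 others (circles) stay at or below 117 and 228 CPM.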

How the data were processed

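Hydroxymethylated DNA was measured by immunoprecipitation and sequencing in 8 libraries. The values the authors deposited are unscaled read counts, listed for the same merged regions in all libraries of a tissue. Build mm9 and the tools Bowtie 1.0.0, CASAVA 1.8.2 and DESeq2 appear in the submitters' processing notes without roles. How peaks were called and merged, how duplicates were handled and whether an input was used are steps not given in the sources used here. Region counts are not whole-library depth. Counts of 0 allow up to 3 counts. Intervals cover counting error only. Starts were raised by 1, as for BED intervals.

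Groups come from the sample titles. Each tissue was fitted over its whole table with edgeR 4.0.16 (R 4.3.3; TMM, filterByExpr, quasi-likelihood F-test, Benjamini-Hochberg FDR 0.05), for regions and for counts summed in 1 Mb bins by region midpoint. Shares and ratios were compared by two-sided exact permutation tests. Plain CPM divides by all region counts of a pool, and TMM-scaled CPM by the tested ones. Pools of a group were not repeats of 1 library (chi-square per degree of freedom 4.36 to 9.56). The edgeR fit was checked on simulated counts of smaller spread than these data, for the sign of recovered changes. That check does not bear on the absence of calls.

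Named regions are, per tissue, the 5 smallest p in each direction without overlap of the groups, the 5 highest by mean CPM, the 3 widest and the 5 strongest shared pairs, and named bins the 3 fullest, the empty ones and the 3 smallest p in each direction. Members, lists and rules were chosen with earlier results of these data known. Alternatives were DESeq2 1.42.0, other scalings, no filter, an FDR of 0.1, 2 Mb bins, other overlap and width rules, each pool left out and the replicate number as a block. The proximal cluster and settings without it were added after the data had been seen. Annotation in build mm9 was not used here, so regions are not assigned to genes and no sequence is printed.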

Additional observations from a re-analysis of the deposited data

Results flagged for a closer look

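The proximal cluster's share of chromosome 11 counts differed by dose in opposite directions, with 5.52 percentage points more in the irradiated pools of hippocampus and -8.35 in ventricle. The distance between these dose differences was 13.9 percentage points. Permuting the dose labels within each tissue gave an exact p of 0.0556, the smallest that its 36 arrangements allow (adjusted over 2 measures 0.0556). The measure was flagged because the doses separated without overlap in opposite directions. That separation alone fixes this p, so it is no test of the difference. The same opposite directions are known for the high-count regions of the whole series, so this is no independent support.

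The ratio of mean counts per region, chromosome 11 over chromosome 3, likewise had dose differences of opposite sign, 0.212 in hippocampus and -0.209 in ventricle. Their distance was 0.421, with the same exact permutation p of 0.0556, fixed by the same flagging rule. The stepped pools, sham pool 1 in hippocampus (0.932) and irradiated pool 1 in ventricle (0.926), hold the lowest ratios. Without them the dose differences were 0.0530 in hippocampus and -0.0788 in ventricle. The groups do not overlap, so leaving out a pool cannot turn the sign. Without the proximal cluster the groups overlapped in both tissues, with differences of 0.135 and -0.0924 (exact permutation p = 0.667 each). In regions of 2544 bp only they overlapped too, with 0.118 and -0.0819 (exact permutation p = 0.667 each).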

How the results depend on the processing

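No region or bin of chromosome 11 was called in either tissue with DESeq2-type size factors, total counts, no filter, an FDR of 0.1, 2 Mb bins, without the proximal cluster or with the replicate number as a block, and DESeq2 called 1 hippocampal bin. With 1 pool left out the calls ranged from 0 to 301 for hippocampal regions and from 0 to 70 for hippocampal bins (15 without sham pool 1, 70 without sham pool 2), and were 0 in ventricle. Hippocampal fits without a sham pool rest on the lone other one. They also called regions and bins outside chromosome 11, so these calls are not particular to it. The share of bins called on chromosome 11 was below that over all bins without sham pool 1 and above it without sham pool 2. The labels do not say that a replicate number marks a shared batch. Same-numbered pools did not deviate together (r = -0.00533 in hippocampus, -0.117 in ventricle), the block changed no call on chromosome 11, and the crossed pairing in ventricle gave 0 calls. The hippocampal difference in the chromosome 11 share (0.0377 percentage points, 0.0377 with the block, 0.0151 to 0.0603 with 1 pool left out) was -0.0127 in tested regions only, -0.278 without the proximal cluster and 0.832 without high-count regions. The ventricular one (0.116, also with the block) was -0.833 without high-count regions and -0.304 to 0.537 with 1 pool left out. The tissue difference in the ratio to chromosome 3 (0.0356) ranged from -0.0429 to 0.124 with 1 pool left out. The percent of members shared was 4.03% in hippocampus and 7.76% in ventricle at a reciprocal overlap of 50%, and 18.8% and 33.1% with midpoints within 10 kb. Of the named regions, chr11:7072288-7079305 had a log2 fold change of -0.10 without sham pool 1 and 1.98 without sham pool 2, and the ventricular chr11:3054581-3058550 (-0.35) had 0.052 with DESeq2-type size factors and -1.30 to 0.0083 with 1 pool left out. The cause of these changes was not tested. In ventricle 563 of 722 members did not pass the filter on low counts and were not tested.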
